A study of Mus musculus with 34 samples.

Results

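Hippocampal RNA of 6 5XFAD mice was compared with that of 4 control mice, chosen by their labels. These are 10 of the 34 samples of the study, which also holds mice with a brain deletion of Hdac1, sorted nuclei and chromatin samples. The 5XFAD mice were labelled Hdac1f/f, 5XFAD and the controls Hdac1f/f, so both groups carried the floxed Hdac1 allele without a Cre transgene and were left untreated as far as the labels say. The labels give an age of 13 to 14 months for the controls and of 13 months for the 5XFAD mice, and the methods give males. Each library is 1 mouse. The 5XFAD transgenes, mutated human APP among them, are under the neuronal Thy1 promoter, and the line was obtained from Jackson Laboratory and crossed with the Hdac1 cKO line, so that differences in genetic background between the groups cannot be told apart from the transgenes. The question asked was how gene expression differs in a brain with amyloid pathology.

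Amyloid plaques in this model draw in microglia, the resident macrophages of the brain. Plaque microglia sense lipids and lipoproteins through the receptor TREM2, which signals through its adaptor TYROBP, and they take up a state with high expression of lysosomal, lipid and phagocytic genes that is called disease-associated. Astrocytes around plaques enlarge and raise GFAP, an intermediate filament protein, and microglial C1q and astrocytic serpins are classical marks of this tissue reaction.

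Expression was given as FPKM, a count of fragments scaled to the length of the transcript and to the mapped fragments of the library, from libraries of transcript 3′ ends, 1 value per gene and mouse. Because a 3′ library was divided by transcript length, levels are compared between mice and not between genes. The sum over genes was between 809873 and 861137 FPKM in controls and between 725060 and 874945 in 5XFAD mice. Relative depth was estimated from the most frequent ratio between the low values of control 1 and those of each library. It was 1 to 2.17 in controls and 1.07 to 2.20 in 5XFAD mice. How many fragments a value rests on is unknown. An exact 0 in these values is no evidence of absent expression, since an enzyme of cholesterol synthesis that cells use in general was listed at 0 in all 10 mice. Low Xist and a Ddx3y level of 12.8 to 18.0 FPKM in all 10 mice fit the stated sex. Markers of tissue next to the hippocampus differed between libraries, and whether this reflects the dissection was not tested. Ttr, the transthyretin of the choroid plexus, was at 576, 17485, 20146 and 12903 FPKM in the controls and between 53.8 and 7892 FPKM in the 5XFAD mice, with a median of 4306. The mean log2(FPKM + 1) over 14 thalamic markers was highest in control 4 (3.08) and 5XFAD mouse 6 (3.16), against 1.79 to 2.34 in the other 8 libraries. In whole tissue, more cells of a type cannot be told apart from more RNA per cell.

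The transgene label was borne out by Thy1, since the transgene carries Thy1 sequence. Thy1 (mm9, chromosome 9, 43851467 to 43856662, forward strand) was at 305, 315, 309 and 303 FPKM in controls and at 1563 to 2076 FPKM in 5XFAD mice, with a median of 1768. The groups were far apart, with a 5.85-fold difference of means and an exact two-sided permutation p of 0.00952, the smallest that 4 against 6 mice allow (0.0381 adjusted over 4 genes). App had means of 212 and 242 FPKM (exact permutation p = 0.171, 0.229 adjusted), and the extent to which reads of the human transgenes were counted on the mouse genes was not tested. Hdac1 was at 7.93 and 8.23 FPKM on average (exact permutation p = 0.790 before and after adjustment).

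The test covered 14402 genes whose mean was 0.5 FPKM or more. Of these, 102 were called (0.708%): 96 rose (0.667%) and 6 fell (0.0417%) in 5XFAD mice at a Benjamini-Hochberg adjusted p under 0.05 in limma. This is the meaning of rose and fell throughout, and fold changes are differences of log2(FPKM + 1). In 95 of the 96 rises the lowest 5XFAD mouse was above the highest control, against 1.92% of all tested genes, and Cxcl10 was the exception. The rises had a median log2 fold change of 1.19, and 68 of them were at least 2-fold. At the thresholds the study used for its gene calls (1.5-fold or more, unadjusted p below 0.05) there were 425 differentially expressed genes (DEGs), of which 248 were higher (1.72%) and 177 lower (1.23%). This count depends on the scale of the fold. The ratio of mean FPKM gave 688 DEGs, 396 higher and 292 lower, and adding 0.1 in place of 1 gave 641. At an unadjusted p below 0.05 with no limit on the fold there were 1543 genes, of which 756 were higher, so that with no limit on the fold rises did not outnumber falls before adjustment. The median over all tested genes was -0.01. Without control 1, the control with the least Ttr, the lower DEGs numbered 360 and the higher DEGs 245, and 20 genes fell and 75 rose.

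**Figure D1:**
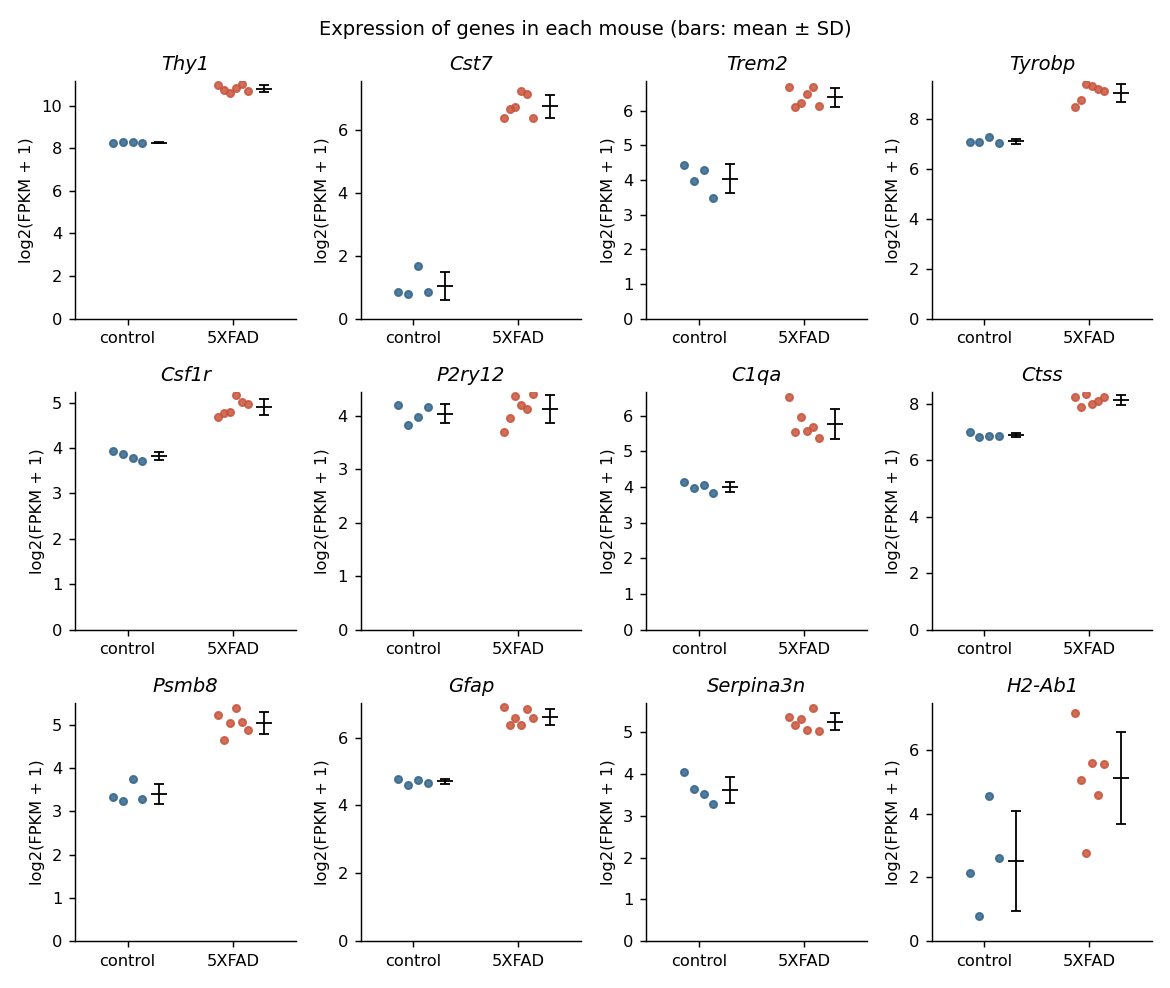
Level of 12 genes in each mouse as log2(FPKM + 1), with 4 control mice in blue and 6 5XFAD mice in orange. Black bars give the mean ± SD of each group. Thy1, Cst7, Trem2, Tyrobp, Csf1r, C1qa, Ctss, Psmb8, Gfap and Serpina3n show 2 separate groups, P2ry12 overlaps fully, and H2-Ab1 overlaps because its 5XFAD mice range from 5.75 to 141 FPKM.

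The largest rise was that of Cst7, which encodes cystatin F, an inhibitor of lysosomal cysteine proteases. Cst7 (mm9, chromosome 2, 150396151 to 150404680, forward strand) was at 0.783, 0.715, 2.22 and 0.801 FPKM in controls and at 81.9 to 148 FPKM in 5XFAD mice, with a median of 103. Its log2 fold change was 5.71 ± 0.21 (SE, adjusted p = 1.23e-08), and the means differed by 97.0-fold. The groups did not come near each other.

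Cst7 belongs to a list of 34 genes of disease-associated microglia, all of which were tested. Of these, 16 rose and none fell, and the median over the list was 0.92 against -0.01 over all genes. Trem2 (chromosome 17, 48485726 to 48493472, forward strand) was at 20.7, 14.7, 18.6 and 10.1 FPKM in controls and at 68.5 to 103 FPKM in 5XFAD mice, with a median of 81.0 (log2 fold change 2.35 ± 0.19, adjusted p = 3.68e-05). Its adaptor Tyrobp went from 133, 135, 153 and 132 FPKM to a range of 357 to 673 FPKM with a median of 579 (1.94 ± 0.16, adjusted p = 4.09e-05). Both genes separated the groups completely. Clec7a, the receptor dectin-1, was between 0.101 and 1.40 FPKM in controls and between 2.60 and 5.63 FPKM in 5XFAD mice (adjusted p = 0.00187). Itgax, the integrin CD11c that marks plaque microglia, was listed at 0 in 3 controls and at 0.152 FPKM in control 3, and at 0.616 to 2.23 FPKM in 5XFAD mice (adjusted p = 0.0188). Cd68, a lysosomal membrane protein of phagocytes, rose by 1.94 ± 0.24, Cd52, a small surface glycoprotein of leukocytes, by 2.08 ± 0.19, and Lilrb4, an inhibitory receptor, by 1.69 ± 0.21. Cybb, the catalytic subunit of the phagocyte NADPH oxidase, was at or below 0.128 FPKM in every control and at 1.06 to 2.24 FPKM in the 5XFAD mice. Apoe, the main lipoprotein of the brain and a TREM2 ligand, rose by only 0.43 ± 0.09 (adjusted p = 0.0415), from 3835 to 4525 FPKM in controls to 4902 to 6037 FPKM.

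The other 18 members did not pass the test. Lpl, lipoprotein lipase, had a log2 fold change of 0.70 (adjusted p = 0.0650), Gpnmb, a lysosomal glycoprotein, of 1.44 (0.0659), Igf1, a growth factor, of 1.06 (0.0694) and Spp1, osteopontin, of 1.45 (0.204). Spp1 was at 0.504, 2.76, 4.53 and 3.44 FPKM in controls and between 3.27 and 13.9 FPKM in 5XFAD mice, so that the groups overlapped. At the other end, Cd63, Bhlhe40, Ank, Hif1a and Fth1 had log2 fold changes between -0.15 and 0.01. The disease-associated list was thus not moved as a whole. Even so, its mean level was 4.21 to 4.50 in controls and 5.26 to 5.43 in 5XFAD mice, without overlap.

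The genes of surveying, or homeostatic, microglia split. Of 20 tested members 6 rose, none fell and the median was 0.30. Csf1r, the receptor on which microglia depend for survival, was at 14.3, 13.5, 12.6 and 12.2 FPKM in controls and at 24.8 to 34.7 FPKM in 5XFAD mice with a median of 28.6 (1.08 ± 0.11, adjusted p = 0.000168). Cx3cr1, the fractalkine receptor, was at 10.4 to 13.9 FPKM in controls and at 22.5 to 27.9 FPKM in 5XFAD mice. Each was about 2-fold higher, with no overlap. Fcrls, an Fc receptor-like protein, rose by 1.28 ± 0.20, Olfml3 by 0.90 ± 0.18 and Selplg, a selectin ligand, by 0.66 ± 0.12. The purinergic receptor P2ry12, with which resting microglia sense nucleotides, was at 17.4, 13.2, 14.7 and 16.8 FPKM in controls and at 11.9 to 20.2 FPKM in 5XFAD mice with a median of 16.9. The groups overlapped fully (0.09 ± 0.14, adjusted p = 0.871). Tmem119 had a log2 fold change of 0.36 (adjusted p = 0.339), Siglech, a sialic acid lectin, of 0.56 (0.133) and the transcription factor Sall1 of 0.34 (0.503). Whether P2ry12 differed from Csf1r and Cx3cr1 in its change was not tested.

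Genes shared by microglia and macrophages all had positive log2 fold changes, from 0.26 to 1.83 over 16 members with a median of 0.77, and 5 of them rose. Ly86, the partner of an immune receptor of the Toll-like class, was at 20.8 to 37.5 FPKM in controls and at 75.9 to 126 FPKM in 5XFAD mice (adjusted p = 6.07e-05). Laptm5, a lysosomal membrane protein of leukocytes, rose by 1.51 ± 0.15 and Ptprc, the phosphatase CD45, by 0.81 ± 0.15. Aif1, which encodes the microglial stain IBA1, had a log2 fold change of 0.73 (adjusted p = 0.131) and the lineage factor Spi1, or PU.1, of 0.81 (0.223). Neither 5 tested genes of border macrophages nor 4 tested genes of blood leukocytes included a call, with medians of -0.14 and 0.26. With 0.708% of all tested genes called, no call is near the background for lists this short, and only 4 of 16 leukocyte genes reached the filter.

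Some antibody receptor and complement genes also rose. Of 12 tested Fc and Toll-like receptor genes 4 rose: Fcgr3, an activating Fc receptor, was at 5.60, 8.40, 6.81 and 6.91 FPKM in controls and at 17.3 to 28.7 FPKM in 5XFAD mice with a median of 27.3 (1.74 ± 0.15, adjusted p = 4.16e-05). Its signalling chain Fcer1g rose by 1.33 ± 0.16, the inhibitory receptor Fcgr2b by 1.70 ± 0.23 and the lipopolysaccharide co-receptor Cd14 by 1.65 ± 0.25. Of the Toll-like receptors, Tlr2 had a log2 fold change of 0.80 (adjusted p = 0.150), and Tlr3, Tlr7 and Tlr13 did not pass either. Of 19 tested phagocytic receptor and signalling genes 5 rose, namely Trem2, Tyrobp, Itgax, the integrin Itgb5 (1.10 ± 0.21) and Cd84 (0.75 ± 0.14), a receptor of the SLAM family. The TREM2 pathway members Plcg2, 0.55, and Inpp5d, 0.57, did not pass (adjusted p = 0.375 and 0.370).

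The 3 chains of C1q, which starts the classical complement cascade, moved together. C1qa was at 16.7, 14.7, 15.5 and 13.3 FPKM in controls and at 40.3 to 91.3 FPKM in 5XFAD mice with a median of 48.2 (1.78 ± 0.19). C1qb was at 60.2 to 92.3 FPKM and at 177 to 258 FPKM (1.36 ± 0.13), and C1qc at 30.0 to 47.1 FPKM and at 97.6 to 123 FPKM (1.45 ± 0.12). No control reached a 5XFAD mouse for any chain. C4b, the next component of the cascade, rose by 2.09 ± 0.18, from 2.36 to 4.64 FPKM up to 13.4 to 24.0 FPKM, with the reservation that its near copy C4a can share reads. C3ar1, a receptor for a fragment of C3, rose by 1.18 ± 0.19. C3 itself had a log2 fold change of 0.35 (adjusted p = 0.856), and none of 14 tested complement genes fell.

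Lysosomal genes rose in part, with 10 of 42 called and a median of 0.30. Beside Cd68 and Laptm5, the list members with the largest rises, several cathepsin proteases were called. Ctss, cathepsin S, was at 128, 113, 115 and 117 FPKM in controls and at 236 to 323 FPKM in 5XFAD mice with a median of 289 (1.25 ± 0.10, adjusted p = 3.63e-05). Ctsd, cathepsin D, was at 128 to 213 FPKM and at 353 to 455 FPKM, and Ctsz, cathepsin Z, at 31.2 to 54.9 FPKM and at 89.8 to 123 FPKM. Ctsh rose by 1.05 ± 0.21 and Ctsb by 0.44 ± 0.09, whereas Ctsl had a log2 fold change of 0.18 (adjusted p = 0.619). Hexa, a hexosaminidase subunit, rose by 0.97 ± 0.12 and Grn, the progranulin gene, by 0.93 ± 0.14. The proton pump subunits Atp6v0d1, Atp6v1a and Atp6v1b2 and the lysosomal regulator Tfeb had log2 fold changes between 0.06 and 0.31 and did not pass.

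**Figure D2:**
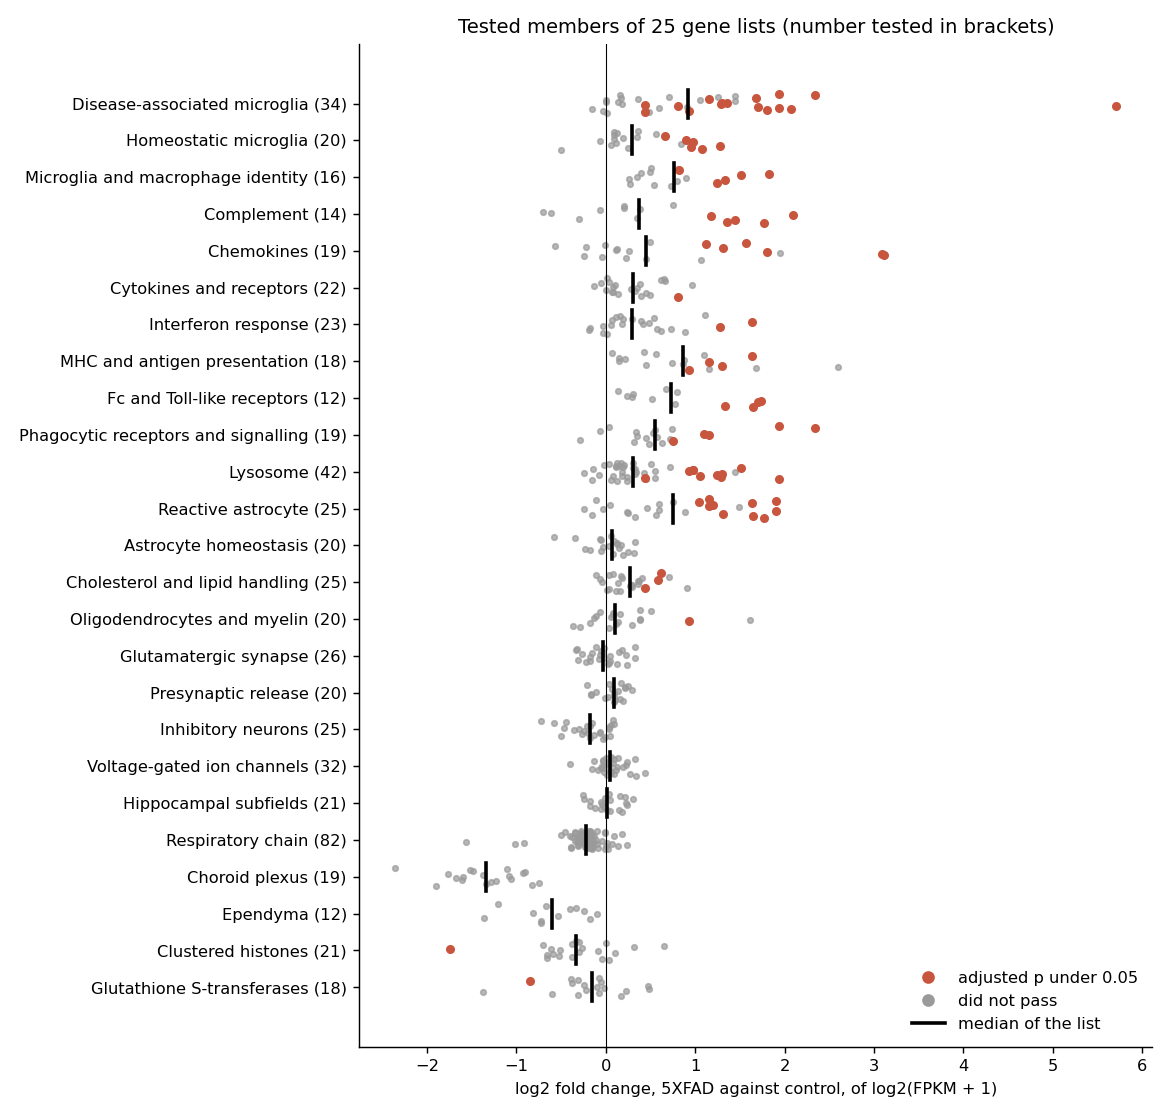
Log2 fold change of 5XFAD against control for each tested member of 25 gene lists. Orange points had an adjusted p under 0.05, grey points did not, and the black line is the median of the list. Calls sit to the right in the microglial, lysosomal and reactive astrocyte lists. The neuronal lists hold no call, with the inhibitory neuron list at a median of -0.17 and the others around 0. The choroid plexus list has a median of -1.34 with no call.

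Of 19 tested chemokines 6 rose. Ccl3, which attracts monocytes and T cells, was at 0, 0.238, 1.48 and 0.356 FPKM in controls and at 5.21 to 15.5 FPKM in 5XFAD mice with a median of 14.4 (3.11 ± 0.31, adjusted p = 0.000227). Its neighbour Ccl4 was listed at 0 in 3 controls and at 2.74 FPKM in control 4, and at 6.75 to 17.4 FPKM in 5XFAD mice (3.09 ± 0.38). Among the genes that rose, only Cst7 had a larger log2 fold change than this pair. Ccl6 rose by 1.81 ± 0.26, Cxcl5, which attracts neutrophils, by 1.57 ± 0.26, Cxcl16, a membrane-bound chemokine, by 1.12 ± 0.23 and Cxcl10, an interferon-induced chemokine, by 1.31 ± 0.26. Among 22 tested cytokines and cytokine receptors only Csf1, a ligand of Csf1r, rose, from 2.82 to 3.78 FPKM in controls to 5.55 to 7.24 FPKM (0.80 ± 0.13, adjusted p = 0.00615). Il1b had a log2 fold change of 0.97 (adjusted p = 0.168), and Tnf, Il6 and Il1a did not reach the filter.

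Of 18 tested antigen presentation genes 4 rose, none fell and the median was 0.87, with log2 fold changes from 0.07 to 2.60. The mean level of the list was 2.35 to 2.95 in controls and 2.81 to 3.99 in 5XFAD mice, so that the groups overlapped. The rises were Psmb8, a subunit of the immunoproteasome, B2m, the light chain of class I molecules, and the class I heavy chains H2-D1 and H2-K1, whose reads can be shared within the class I family. Psmb8 was at 9.02, 8.37, 12.5 and 8.81 FPKM in controls and at 24.0 to 40.9 FPKM in 5XFAD mice with a median of 32.0 (1.64 ± 0.15, adjusted p = 7.16e-05). B2m was at 238 to 347 FPKM and at 513 to 726 FPKM (0.93 ± 0.13). The class II gene H2-Ab1 was at 3.41, 0.707, 22.3 and 5.07 FPKM in controls. In 5XFAD mice 1 to 6 it was at 141, 32.0, 5.75, 47.8, 23.1 and 46.0 FPKM. One 5XFAD mouse thus lay below a control and another was over 6 times that control, and the log2 fold change of 2.60 did not pass (adjusted p = 0.388). H2-Aa followed the same mice, with 69.1 FPKM in mouse 1 and 2.30 FPKM in mouse 3. Of 23 tested interferon-stimulated genes 2 rose, Psmb8 and Ifit3 (1.28 ± 0.23), and the median was 0.29. The transcription factor Irf7 had a log2 fold change of 0.06 (adjusted p = 0.963). Of the immunity-related GTPases, which interferon gamma induces, Igtp rose by 1.33 ± 0.24 and Irgm1 by 0.78 ± 0.13.

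Promoters of the genes that rose were read from RefSeq (mouse GRCm38.p6), from 250 bases before to 50 bases after the transcript start, for 71 of the 96 genes that matched by symbol. The letter strings were picked after the values were seen and searched on both strands. The letters GAGGAAGT are 1 form of the site bound by the myeloid factor PU.1. They were in 9 of the 71 promoters (12.7%) against 2.82% of 10622 promoters of tested genes. They were found at Acat2, Apbb1ip, Arpc1b, Bcl2a1b, C1qc, Cd37, Ctss, Pycard and Slamf9. The letters GAAA, any 2 bases and GAAA again, which resemble the element of interferon-stimulated genes, were in 7 of the 71 (9.86%) against 2.86%, at B2m, Ctss, Cxcl10, Cybb, Ifit3, Igtp and Irgm1. Overlaps between the 2 strings were not counted apart. The GC box GGGGCGGGG, letters chosen here for the guanine-rich SP/KLF type of motif, was in 9 of the 71 (12.7%) against 21.3% of all. Of the 5 matched genes that fell it was in Usp15 only. The study reported such motifs for downregulated genes, with a motif search over a wider stretch around the start. These shares, mainly of genes that rose, are no test of that result. Below are 4 promoters, 1 for a C1q chain, 1 for the cathepsin that holds both strings and 2 for an interferon-stimulated and a class I gene. Capitals mark either string or its reverse complement. They lie at chr4:136892865-136893164 on the reverse strand (C1qc), chr3:95526536-95526835 on the forward strand (Ctss), chr19:34583279-34583578 on the forward strand (Ifit3) and chr2:122147437-122147736 on the forward strand (B2m).
C1qc: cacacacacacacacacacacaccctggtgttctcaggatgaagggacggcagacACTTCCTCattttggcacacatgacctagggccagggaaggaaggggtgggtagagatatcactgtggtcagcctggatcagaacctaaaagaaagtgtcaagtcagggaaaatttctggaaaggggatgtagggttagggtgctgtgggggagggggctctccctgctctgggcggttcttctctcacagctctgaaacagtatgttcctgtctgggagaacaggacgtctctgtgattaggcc
Ctss: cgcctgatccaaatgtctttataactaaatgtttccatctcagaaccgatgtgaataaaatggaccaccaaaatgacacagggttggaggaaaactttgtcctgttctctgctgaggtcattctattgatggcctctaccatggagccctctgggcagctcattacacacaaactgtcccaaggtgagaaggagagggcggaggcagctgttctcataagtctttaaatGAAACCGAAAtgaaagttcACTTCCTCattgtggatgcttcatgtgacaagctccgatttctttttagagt
Ifit3: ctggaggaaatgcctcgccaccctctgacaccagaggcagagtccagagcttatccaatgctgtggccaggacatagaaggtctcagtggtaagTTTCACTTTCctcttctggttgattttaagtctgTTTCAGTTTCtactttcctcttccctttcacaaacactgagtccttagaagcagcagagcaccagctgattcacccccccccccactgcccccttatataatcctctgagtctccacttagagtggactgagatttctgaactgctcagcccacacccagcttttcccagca
B2m: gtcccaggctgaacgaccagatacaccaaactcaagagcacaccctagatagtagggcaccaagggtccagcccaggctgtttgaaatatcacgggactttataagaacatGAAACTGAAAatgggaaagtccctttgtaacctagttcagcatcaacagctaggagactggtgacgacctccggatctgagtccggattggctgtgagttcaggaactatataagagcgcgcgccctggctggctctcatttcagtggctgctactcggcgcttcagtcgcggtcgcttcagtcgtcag
In Ctss the interferon-type letters begin 21 bases and the PU.1-type letters 2 bases before the start, while Ifit3 holds the interferon-type letters 2 times, 156 and 122 bases before its start. A match of letters is a description and no evidence of binding.

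Astrocyte genes of injured or inflamed tissue formed the other large group of rises, with 10 of 25 tested members called and a median of 0.76. Gfap (chromosome 11, 102748650 to 102762226, reverse strand) was at 26.6, 23.5, 26.0 and 24.5 FPKM in controls and at 81.3 to 118 FPKM in 5XFAD mice with a median of 95.2 (1.90 ± 0.12, adjusted p = 1.86e-06). The lowest 5XFAD mouse was over 3 times the highest control. Serpina3n, a secreted protease inhibitor, was at 8.67 to 15.5 FPKM and at 31.6 to 46.9 FPKM (1.64 ± 0.15), and Vim, another intermediate filament, at 18.6 to 31.0 FPKM and at 41.2 to 83.9 FPKM (1.16 ± 0.20). S100a6, a calcium-binding protein, rose by 1.20 ± 0.12, Osmr, the oncostatin M receptor, by 1.16 ± 0.16, and Aspg, an asparaginase, by 1.77 ± 0.21. Timp1, an inhibitor of metalloproteases, was at or below 0.448 FPKM in controls and at 1.25 to 8.70 FPKM in 5XFAD mice (1.90 ± 0.35, adjusted p = 0.0254). Of the list, Cd14, Cxcl10 and the proteoglycan Srgn (1.04 ± 0.20) are also expressed by microglia. Lcn2, lipocalin 2, had a log2 fold change of 1.48 (adjusted p = 0.104) and Cd44, the hyaluronan receptor, of 0.56 (0.141). None of 20 tested genes of astrocyte homeostasis, such as transporters and channels, passed in either direction, and their median was 0.07. Of all tested genes 0.708% were called, so a count of 0 is near the background for a list of this size.

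A smaller group served sterol and lipid handling. Of 25 tested members 3 rose, Apoe and Sqle among them, with a median of 0.27. Sqle, squalene epoxidase, was at 21.6, 21.8, 25.2 and 22.5 FPKM and at 32.3 to 40.5 FPKM with a median of 34.9 (0.62 ± 0.10, adjusted p = 0.00595). Acat2, a cytosolic thiolase, and Mvd, mevalonate diphosphate decarboxylase, which are outside the list and were singled out after their values were seen, rose by 0.68 ± 0.09 and 1.05 ± 0.18. Sqle, Acat2 and Mvd act in or feed the mevalonate route. Other enzymes of the route did not pass, with log2 fold changes of 0.37 for Fdft1, -0.06 for Idi1, 0.28 for Cyp51 and -0.11 for Lss. Of 20 oligodendrocyte genes only Gsn, the actin-severing protein gelsolin, rose (0.93 ± 0.14), and the myelin gene Mbp had a log2 fold change of 0.05. Klk6, a protease of oligodendrocytes, had a log2 fold change of 1.62 that did not pass (adjusted p = 0.227).

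Of the 96 rises, 62 were in at least 1 list and 34 in none. Some of the latter are given here as examples, chosen after their values were seen. Mpeg1, a pore-forming protein of macrophages, rose by 1.75 ± 0.18, from 1.15 to 1.93 FPKM up to 5.12 to 10.4 FPKM. Bcl2a1b, an anti-apoptotic gene with near copies that can share its reads, rose by 1.90 ± 0.35, Wfdc17 by 1.76 ± 0.22 and Lyz1, a lysozyme whose reads can be shared with Lyz2, by 1.52 ± 0.19. The file symbol 4632428N05Rik, which RefSeq lists as a synonym of Vsir, the immune checkpoint protein VISTA, rose by 1.23 ± 0.13. The proton channel Hvcn1 rose by 1.05 ± 0.20, the phosphatase Ptpn6 by 1.27 ± 0.23 and the inflammasome adaptor Pycard by 0.97 ± 0.20. Hrk, a pro-apoptotic BH3 protein of neurons, was at 4.63, 5.42, 5.23 and 5.99 FPKM in controls and at 7.55 to 9.36 FPKM in 5XFAD mice (0.54 ± 0.11, adjusted p = 0.0472), and Igfbp5, a binding protein of insulin-like growth factors, at 11.4 to 15.5 FPKM and at 18.9 to 30.9 FPKM (0.74 ± 0.14). Among 262 tested solute carriers 1 rose, Slc11a1, the metal transporter of phagosomes (1.44 ± 0.18), and none fell, which is near the background of 0.667% and 0.0417% of all tested genes.

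No member of the neuronal gene lists was called. The 6 lists of glutamatergic synapse, presynaptic release, inhibitory neuron, ion channel, subfield and progenitor genes held 135 different tested genes. None rose or fell in limma, where 0.708% of all tested genes were called, so a count of 0 is near the background for a list of this size. Before adjustment 18 of the 135 had a p below 0.05, against 1543 of all 14402 genes. The smallest adjusted p was 0.213 and the median log2 fold change was 0.02. Inhibitory neuron genes had the lowest median of these lists, -0.17, and 19 of 25 members had negative log2 fold changes. Their mean level was 4.84 to 5.03 in controls and 4.61 to 4.83 in 5XFAD mice, without overlap, although no member passed. Sst, the neuropeptide somatostatin, was at 746, 718, 591 and 595 FPKM in controls and at 282 to 617 FPKM in 5XFAD mice with a median of 474 (-0.58 ± 0.21, adjusted p = 0.351). Npy, neuropeptide Y, had a log2 fold change of -0.46 (adjusted p = 0.311). Gad2, a GABA-synthesizing enzyme, was at 24.6 to 36.3 FPKM in controls and at 19.6 to 23.4 FPKM in 5XFAD mice, without overlap, but did not pass (-0.36 ± 0.12, adjusted p = 0.267). Slc17a7, the vesicular glutamate transporter of excitatory neurons, was at 15.4 to 19.2 FPKM and at 20.5 to 23.8 FPKM (0.33 ± 0.10, adjusted p = 0.213). Genes of endothelium, oligodendrocyte precursors, chaperones, immediate early response, histone deacetylases, antioxidants and oxidized base repair also held no call, with medians between -0.05 and 0.16. The respiratory chain list had a median of -0.22 over 82 genes, 74 of them negative, without a call.

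Genes tied to the DNA repair question of the study did not pass here. Ogg1, the glycosylase that removes 8-oxoguanine, was low, at 0.687, 1.15, 0.217 and 0.780 FPKM in controls and at 0 to 0.745 FPKM in 5XFAD mice (-0.28 ± 0.21, adjusted p = 0.676). The study assayed the promoters of 7 genes for 8-oxoguanine in aged mice with the brain deletion of Hdac1 and in controls. It chose them from the gene calls of that comparison and not of 5XFAD mice, so the RNA values here do not test that assay. Of these 7 genes, Prkcd, Gpx3, Slc4a5 and Slc18a2 had log2 fold changes of -0.07, -0.27, -0.91 and -0.06, and Cdc25b, Sertad1 and Stk40 of 0.43, 0.21 and 0.32. The smallest adjusted p was 0.532, for Stk40, and every one of the 7 overlapped between groups. Prkcd and Slc4a5 are themselves members of the thalamic and choroid plexus lists, so a likeness to those lists is in part built in. Prkcd, a protein kinase C of thalamic neurons, was at 25.1 FPKM in control 4 and 28.5 FPKM in 5XFAD mouse 6, the libraries with the most thalamic marker signal, and at 6.59 to 16.4 FPKM in the other 8. Slc4a5, a bicarbonate transporter of the choroid plexus, was at 0.436, 4.32, 6.25 and 4.33 FPKM in controls, lowest in the control with the least Ttr, and at or below 0.0406 FPKM in the 5XFAD mice 4 and 5.

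The whole choroid plexus list, 19 of 19 tested genes, was lower in 5XFAD mice, with log2 fold changes from -2.35 to -0.75, yet none passed the test (smallest adjusted p 0.443) and the groups overlapped. The mean level of the list was 2.23, 5.26, 5.51 and 4.90 in controls and 3.19, 4.24, 3.85, 1.67, 1.52 and 4.23 in 5XFAD mice 1 to 6. Ependymal genes, from the ciliated lining of the ventricle, were lower in 12 of 12 with a median of -0.60. Dynlrb2, a dynein light chain of cilia, was at 30.5, 42.2, 78.1 and 89.8 FPKM in controls and at 13.1 to 31.9 FPKM in 5XFAD mice (-1.37 ± 0.35, adjusted p = 0.168). Of the ependymal genes 6 were lower DEGs and none passed after adjustment. With the choroid plexus level as a covariate, 58 genes rose and 2 fell, and 54 of the 96 rises and 2 of the 6 falls were still called. All 96 rises stayed positive.

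**Figure D3:**
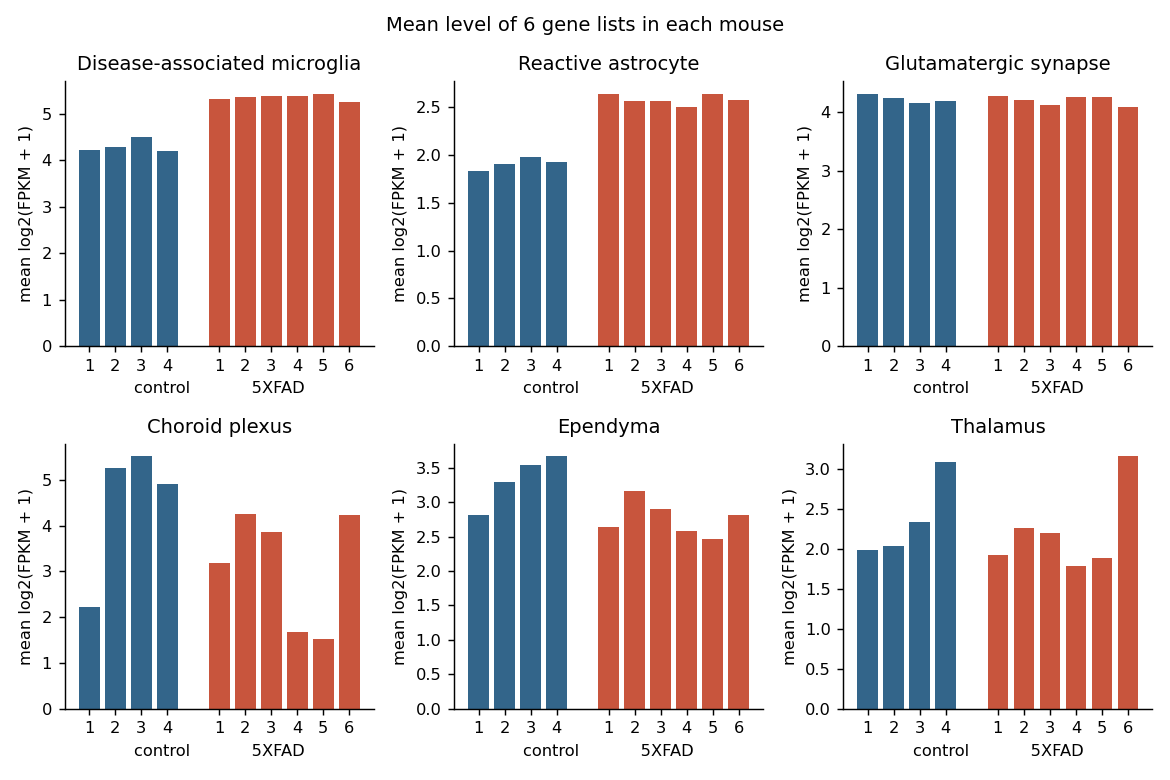
Mean log2(FPKM + 1) of 6 gene lists in each of the 4 control (blue) and 6 5XFAD (orange) mice, numbered by replicate. The disease-associated microglia and reactive astrocyte lists separate the groups in every mouse, the glutamatergic list does not, and the choroid plexus level varies from 1.52 to 5.51 between animals of both groups.

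The 6 genes that fell had no common theme by their known roles. Hist1h4c (chromosome 13, 23789929 to 23790323, reverse strand), 1 of many near-identical histone H4 genes whose reads can be shared, was at 5.34, 4.06, 1.68 and 2.42 FPKM in controls. It was listed at 0 in 4 of the 5XFAD mice and at 0.959 and 0.803 FPKM in the others (-1.75 ± 0.29, adjusted p = 0.00970). Among 21 tested clustered histone genes it was the only call, and the list median was -0.34. Gstt3 (chromosome 10, 75236860 to 75244159, reverse strand), a glutathione S-transferase, was at 2.43 to 4.22 FPKM in controls and at 1.08 to 2.07 FPKM in 5XFAD mice (-0.85 ± 0.18, adjusted p = 0.0499), the only call among 18 genes of its family. Mthfs (chromosome 9, 89094217 to 89135064, forward strand), a folate enzyme, fell by 0.77, Usp15 (chromosome 10, 122550286 to 122634017, reverse strand), a deubiquitinase, by 0.57, Cbx1 (chromosome 11, 96650441 to 96669954, forward strand), the heterochromatin protein HP1 beta, by 0.54, and Smim11, a small membrane protein, by 0.43 on the log2 scale. No 5XFAD mouse reached a control for any of the 6, a pattern that 0.986% of all tested genes showed. When each single mouse was left out in turn, only Hist1h4c was called every time. With the replicate number as a block in the fit, 1 of the 6 was called.

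A second comparison of the same transgenes used other animals: 5 mice labelled Hdac1f/f, Nestin-Cre, 5XFAD against 5 labelled Hdac1f/f, Nestin-Cre, in which Cre deletes Hdac1 in cells of the neural lineage. No mouse is shared with the first comparison. The labels give an age of 13 months for the mice with 5XFAD, called Hdac1 cKO;5XFAD below. They give 13 to 14 months for the mice without it, called Hdac1 cKO. In limma 202 of 14195 genes rose there (1.42%) and 9 fell (0.0634%). Of the 96 rises, 94 had the same sign in these mice, 73 were called again, and their median log2 fold change was 1.37. All 73 rose there as here, which is 71.6% of the 102 calls here and 34.6% of the 211 calls there. Cst7 had log2 fold changes of 5.71 and 6.18, Thy1 of 2.54 and 2.42, Gfap of 1.90 and 1.97 and Trem2 of 2.35 and 2.44. The 2 exceptions were Irgm1, at 0.78 here and -0.05 there, and Hrk, at 0.54 and -0.32. Conversely, 186 of the 202 rises there were positive here.

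The falls did not carry over. Only Cbx1 of the 6 had the same sign in the Hdac1 cKO background, none was called, and their median there was 0.16. Hist1h4c was at -1.75 here and at 1.04 there, and Mthfs at -0.77 and 0.83. Over the lower DEGs, 61 of 156 with a value in both comparisons (39.1%) were lower there too, against 217 of 243 of the higher DEGs (89.3%). Over all tested genes the shares were 53.2% of the genes lower here and 48.3% of those higher here. The share was thus below that of all genes for lower DEGs and above it for higher DEGs. With the choroid plexus covariate in the comparison of 5XFAD with control, the share of lower DEGs was 58.1%. In each of the 6 falls the mean of the Hdac1 cKO mice was below that of the controls and the mean of the Hdac1 cKO;5XFAD mice above that of the 5XFAD mice, although the genes had been chosen for high control and low 5XFAD values. Usp15 is 1 example. It was at 19.0 to 25.6 FPKM in controls and 13.2 to 16.3 FPKM in 5XFAD mice, at 14.4 to 19.0 FPKM in Hdac1 cKO mice and at 10.8 to 22.7 FPKM in Hdac1 cKO;5XFAD mice. The labels of the 5XFAD and the Hdac1 cKO;5XFAD libraries are worded alike and unlike those of the other 2 groups, and no batch is given, so a difference in preparation between these pairs of groups cannot be told apart from the transgenes in either comparison.

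**Figure D4:**
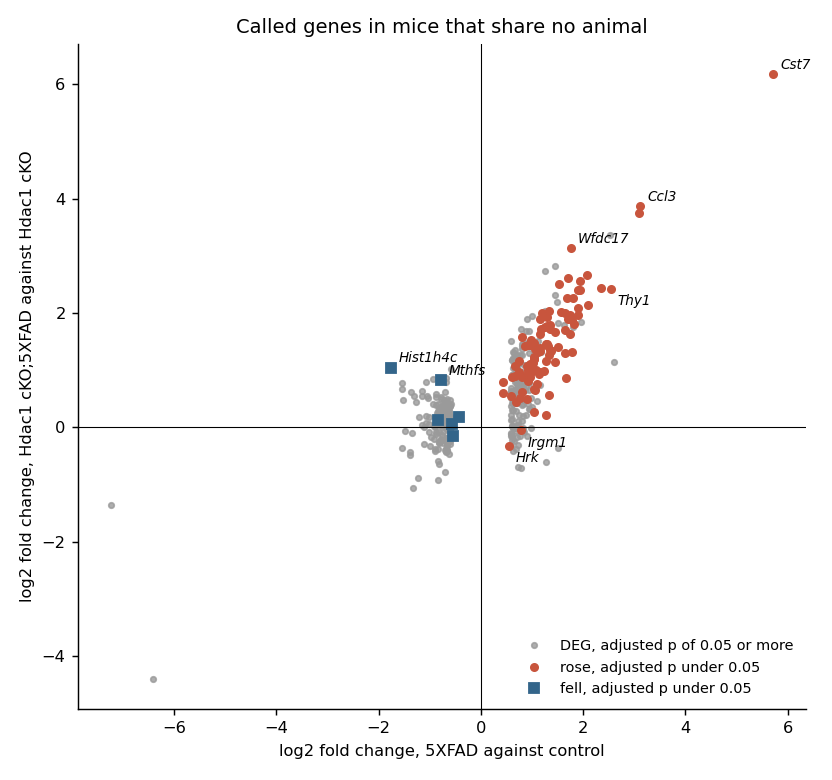
Log2 fold change of 5XFAD against control (horizontal) and of Hdac1 cKO;5XFAD against Hdac1 cKO (vertical) for all DEGs and called genes of the first comparison with a value in both. Orange points rose, blue squares fell and grey points are other DEGs. Of 96 orange points 94 lie above 0, and of 6 blue squares 1 lies below 0.

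**Figure D5:**
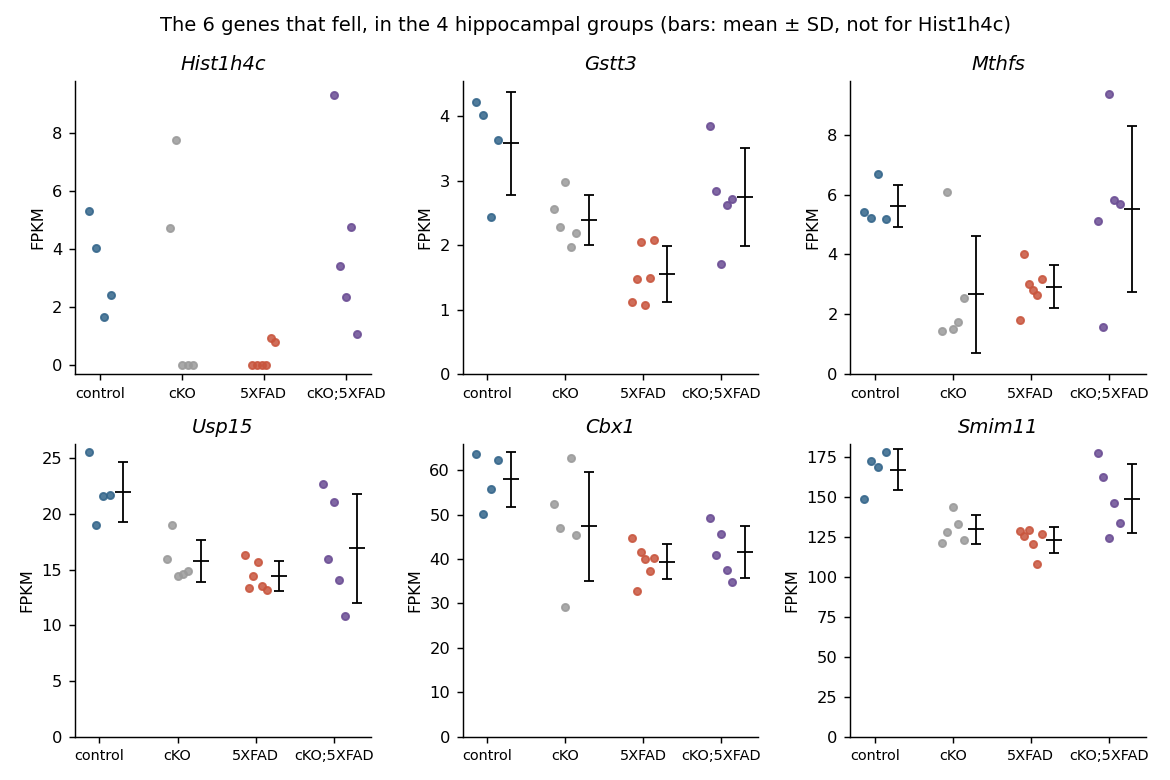
FPKM of the 6 genes that fell, in each mouse of the 4 hippocampal groups, where cKO stands for Hdac1 cKO. Black bars give the mean ± SD, left out for Hist1h4c because of its values of 0. The 5XFAD mice lie below every control in each panel, while the Hdac1 cKO mice overlap the 5XFAD mice in each panel.

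The difference between both transgene effects was tested as an interaction over all 20 mice. No gene of 14389 passed in limma (smallest adjusted p 0.226), and 1290 had an unadjusted p under 0.05. Wfdc17 rose by 1.76 here and had a log2 fold change of 3.14 in the Hdac1 cKO background. Ctsz was 1.29 here and 1.94 there, and Slamf9 0.80 and 1.58, while Hrk and Irgm1 had the opposite order. None of these differences passed after adjustment.

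A set of 6 genes was listed at 0 in every mouse of one group and above 0 in every mouse of the other. Apoc4, an apolipoprotein next to Apoe, was listed at 0 in the 4 controls and at 11.9, 2.61, 9.93, 1.90, 12.1 and 0.879 FPKM in 5XFAD mice 1 to 6. The hexokinase Hk3, known from leukocytes, was listed at 0 and at 0.190 to 0.423 FPKM, and the serpin Serpina3i at 0 and at 0.103 to 0.416 FPKM. Dbf4 and Prx were also listed at 0 in every control, and Zfp36l3 in every 5XFAD mouse. All but Apoc4 stayed below 1 FPKM in every mouse, and no fold is given against a group listed at 0.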

How the data were processed

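The authors sequenced 3′ ends of hippocampal RNA, aligned reads with TopHat, and computed and deposited FPKM per gene with Cufflinks 2.0.0 on mm9. The test behind the published gene calls is not given in the sources used here, and the methods give the sequencing yield only as a mean over samples, not for each library. From the deposited FPKM values, genes averaging 0.5 FPKM or more in the mice compared were kept, log2(FPKM + 1) was fitted in limma 3.58.1 (R 4.3.3) with the trend and robust options, and p-values were adjusted by the Benjamini-Hochberg method. A fold change on this scale understates the change of low genes. Adding 1 and the filter were varied, as were the scaling, the options of the fit, the choroid plexus level as a covariate, the replicate number as a block and each mouse. Thy1, App, Hdac1 and 1 other gene were compared by exact two-sided permutation of log2(FPKM + 1). A few genes are not reported here. Positions are from GENCODE vM1 (NCBIM37, mm9), and Smim11 was not matched. The genes named were the 20 largest rises, the falls, members of the lists and genes the study assayed; others were chosen after their values were seen and include those listed at 0 in one group only. Members and lists were chosen with earlier results of these data known. The fits were tested on simulated data. The libraries of other experiments in the study were not used here.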

Additional observations from a re-analysis of the deposited data

Results flagged for a closer look

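In groups of 4 to 6 mice, 1 mouse lay far from the others in 22 of 290 groups examined, where chance gives about 1 in 20. Control 3 held 6 of these values, most of them microglial: Cst7 at 2.22 FPKM, Tyrobp at 153, Lilrb4 at 0.673, Itgax at 0.152 and Cxcl16 at 2.46 FPKM were its high values, as was a mean level of 3.14 for the microglia and macrophage identity list. Each of these 5 microglial genes was still below the lowest 5XFAD mouse. Other control values were Ccl4 at 2.74 FPKM and Cx3cr1 at 10.4 FPKM in control 4, Fcrls at 4.62 FPKM and H2-D1 at 12.2 FPKM in control 2, and Olfml3 at 1.20 FPKM, Osmr at 0.927 FPKM and Ttr at 576 FPKM in control 1.

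Among 5XFAD mice, Fcgr3 was low in mouse 2 (17.3 FPKM), Smim11 in mouse 5 (108 FPKM) and Slc18a2 in mouse 4 (0.776 FPKM). The mean level of the complement list was high in mouse 1 (2.79), that of the cholesterol and lipid list in mouse 5 (4.27) and that of the thalamic list in mouse 6 (3.16), and that of the hippocampal subfield list was low in mouse 2 (3.47). The glutathione S-transferase list was high in control 2 (3.56) and low in 5XFAD mouse 1 (3.11). No cause was tested for any of these values.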

How the results depend on the processing

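None of the 102 called genes changed sign under any alternative run, and 56 rises and 1 fall, Hist1h4c, were called with each single mouse left out. The median over all genes stayed between -0.01 and 0.00 in these settings. With 1 mouse left out, calls ranged from 69 to 129, rises from 67 to 102, falls from 1 to 27 (27 without 5XFAD mouse 3), DEGs from 410 to 605, higher DEGs from 245 to 293 and lower DEGs from 158 to 360. In the Hdac1 cKO background rises ranged from 143 to 239 and falls from 4 to 22, and the interaction gave 0 or 1 gene. The share with the same sign there ranged from 95.5% to 98.9% for rises, 82.8% to 90.0% for higher DEGs and 30.4% to 48.0% for lower DEGs.

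With the choroid plexus covariate there were 60 calls, 58 higher and 2 lower, and Ttr, Prkcd, Slc4a5 and Slc18a2 turned to 0.43, 0.30, 0.067 and 0.16. Ttr and Slc4a5 are members of the list whose mean level made the covariate, so their turn is in part built in. Without the trend and robust options 3 genes fell. Adding 0.1 in place of 1 gave 641 DEGs, 392 higher, and the ratio of mean FPKM gave 688, 396 higher and 292 lower. The causes were not tested. Leaving out 1 mouse also turned Hdac1, which ranged from -0.051 to 0.20, Prkcd, from -0.33 to 0.26, and Slc18a2, from -0.20 to 0.12, none of them called.

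Replicate numbers did not pair the mice, with correlations of deviations between -0.11 and 0.05 over the 4 numbers. With the replicate number as a block there were 48 calls, 47 higher and 1 lower, including 44 of the 96 rises. The depth of each library in fragments is unknown, so low genes, such as those listed at 0 in a group, carry an error that these values do not show.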
